A study of Mus musculus with 6 samples.

Results

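Polycomb repressive complex 2 (PRC2) was followed through its subunit genes, taken as the table rows named EED, SUZ12, EZH1, EZH2, RBBP4, RBBP7, JARID2, MTF2, PHF1 and PHF19. All 10 symbols were among the 23284 genes listed, and all 10 entered the tests. RNA had been sequenced from 6 subcutaneous xenografts in athymic nude mice, grown from STS26T, a human line derived from a malignant peripheral nerve sheath tumour (MPNST). In the anti-ENG group (3 tumours) the mice were given 2 antibodies to endoglin (ENG), TRC105 against the human and M1043 against the mouse protein, and in the control group (3 tumours) the corresponding IgG. Both arms received 10 mg/kg into the peritoneum 2 times a week for 3 weeks. Every tumour came from the same cell line, and athymic mice lack mature T cells, so neither group models an intact immune host.

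PRC2 places methyl groups on lysine 27 of histone H3, a mark of silenced genes. EZH1 or EZH2 supplies the catalytic domain, EED reads the finished mark and stimulates the enzyme, SUZ12 holds the parts together, and RBBP4 or RBBP7 binds histones. One class of the complex carries a Polycomblike protein (PHF1, MTF2 or PHF19) and another carries JARID2 with AEBP2. In MPNST the complex is often lost through inactivation of SUZ12 or EED, with loss of the histone mark and expression of genes that it normally keeps silent. The levels per tumour therefore address whether subunit RNA was present or absent in this model, and the comparison addresses whether endoglin antibodies were accompanied by a change.

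Values are FPKM, fragments per kilobase of transcript scaled to mapped fragments, as deposited, so levels of different genes can be set side by side. The FPKM values of a tumour summed to between 410786 and 475146. RNA of human ENG, the antibody target, had an estimate of -0.26 on the log2 scale (limma adjusted p = 0.751). IgG control 1 and anti-ENG 1 were the 2 tumours farthest apart on principal component 1 (44.6% of variance). Of 13 Schwann and neural crest markers, 6 were under 1 FPKM in every tumour, including SOX10 (0.0283 to 0.188 FPKM), and CDH19 was listed at 0 throughout. NES, TWIST1 and SOX9, which other mesenchymal cells also express, were at 19.1 FPKM or more in every tumour. SOX10 and CDH19, both markers of the Schwann lineage, were singled out from this list afterwards, and the identity of the tumours was not tested. Of 5 markers of this list that were tested, 2 had higher estimates under anti-ENG, with NES at -0.62, TWIST1 at -0.26 and SOX9 at 0.17 on the log2 scale. Of 6 melanocyte markers 4 were under 1 FPKM in every tumour, and MITF, the only one tested, was at 0.49.

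RNA of all 10 PRC2 subunits was present in every tumour. The lowest single value was 5.59 FPKM, for JARID2 in anti-ENG 1, so all 10 also passed 5 FPKM in each tumour, a level that 39.8 to 40.6% of listed genes reached. Within a tumour, the share of listed genes with a lower value than a subunit ran from 61.6% for JARID2 at its lowest to 98.0% for RBBP7 at its highest. No tumour stood apart by absence of a subunit. RNA presence does not show that protein was made or that the histone mark was kept, neither of which was measured. The table uses human gene symbols, and the share of host mouse reads among these values was not tested.

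**Figure D1:**
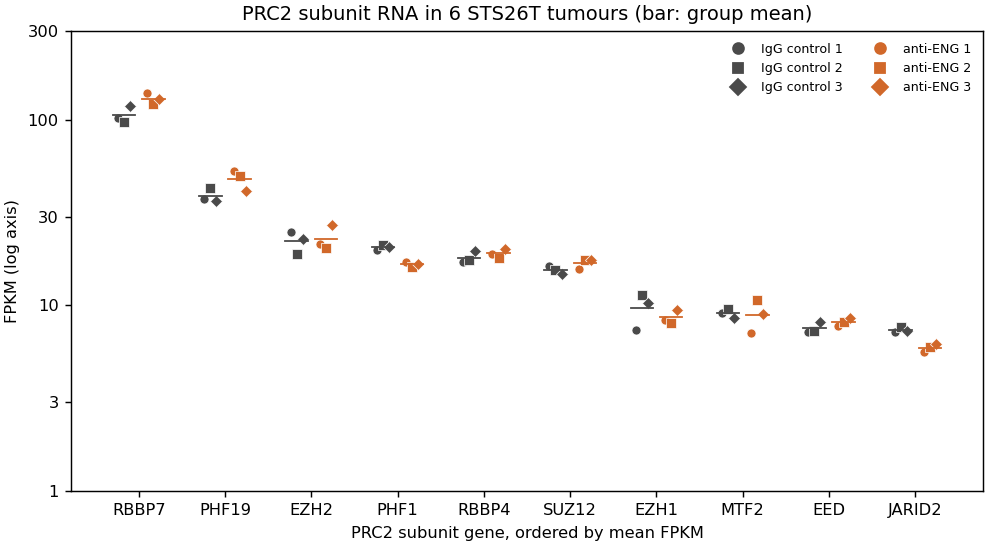
FPKM of the 10 PRC2 subunit genes (log axis) in each IgG control tumour (grey) and each anti-ENG tumour (orange), ordered by mean, with a bar at each group mean. Every point lies above 5 FPKM, and RBBP7 and PHF19 lie above the other subunits in all 6 tumours.

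The subunits most often inactivated in MPNST were among the steadiest. SUZ12, the scaffold, had 16.3, 15.5 and 14.7 FPKM under IgG (tumours 1, 2 and 3, the order used throughout) and 15.6, 17.5 and 17.4 FPKM under anti-ENG. The groups overlapped, and the highest tumour was 1.19 times the lowest. EED, the reader of the mark, had 7.16, 7.28 and 8.13 FPKM under IgG and 7.77, 8.16 and 8.58 FPKM under anti-ENG. Its groups also overlapped, with the highest tumour 1.20 times the lowest. The standard deviation over the 6 tumours on the log2(FPKM + 1) scale was lower than that of SUZ12 in 6.52% of genes tested, and lower than that of EED in 5.48%. SUZ12 RNA exceeded EED RNA by 1.80 to 2.28 times in each tumour.

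Both catalytic genes were present, with EZH2 above EZH1 in each tumour. EZH2, the form typical of dividing cells, had 24.8, 18.8 and 22.8 FPKM under IgG and 21.3, 20.3 and 27.1 FPKM under anti-ENG. The groups were fully interleaved. EZH1, the form kept in resting cells, had 7.36, 11.3 and 10.3 FPKM under IgG and 8.37, 8.04 and 9.39 FPKM under anti-ENG. IgG control 1 had the lowest EZH1 value, and IgG control 2 the highest. The ratio of EZH2 to EZH1 was 3.37, 1.66 and 2.22 under IgG and 2.54, 2.52 and 2.88 under anti-ENG. Its means were 2.42 ± 0.874 and 2.65 ± 0.202 (SD, n = 3 each), a difference within the spread of the control tumours.

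Of the histone-binding pair, which also serve in histone deacetylase, nucleosome remodelling and chromatin assembly complexes, RBBP7 was by far the more abundant. RBBP7 had 101.9, 97.6 and 118.6 FPKM under IgG and 139.2, 121.0 and 128.6 FPKM under anti-ENG. Each anti-ENG tumour was above each control. RBBP4 had 17.2, 17.4 and 19.6 FPKM under IgG and 19.0, 17.9 and 20.2 FPKM under anti-ENG, with overlapping groups. The ratio of RBBP7 to RBBP4 was 5.86 ± 0.238 in controls and 6.82 ± 0.485 in anti-ENG tumours (SD, n = 3 each), and its groups did not overlap. RBBP4 and RBBP7 are close paralogues, and how reads shared between them or with their processed copies were assigned is not stated in the sources used.

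Among the Polycomblike proteins, which bind DNA rich in CpG and help bring the complex to its targets, PHF19 was the most abundant and MTF2 the least by mean. PHF19 had 37.5, 42.6 and 36.4 FPKM under IgG and 52.7, 49.9 and 41.3 FPKM under anti-ENG, where anti-ENG 3 was just under IgG control 2. PHF1 had 20.0, 21.2 and 20.5 FPKM under IgG and 17.1, 16.1 and 16.7 FPKM under anti-ENG. All 3 anti-ENG tumours were below all 3 controls. MTF2 had 9.13, 9.51 and 8.54 FPKM under IgG and 7.08, 10.6 and 8.91 FPKM under anti-ENG, with the extremes both in the anti-ENG group. PHF19 made up 55.6 to 58.1% of the summed FPKM of the 3 genes in the control tumours and 61.7 to 68.5% in the anti-ENG tumours.

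JARID2, which recruits and tunes the other class of the complex, had 7.21, 7.61 and 7.30 FPKM under IgG and 5.59, 5.92 and 6.21 FPKM under anti-ENG. All anti-ENG tumours were below all controls. Its partner AEBP2 had 6.38, 5.16 and 6.36 FPKM under IgG and 7.32, 5.74 and 5.53 FPKM under anti-ENG, with overlapping groups. The ratio of JARID2 to AEBP2 was 1.13 to 1.47 in the controls and 0.763 to 1.12 in the anti-ENG tumours. These groups were apart only by the gap between IgG control 1 and anti-ENG 3.

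By mean level the order of the subunits was RBBP7, PHF19, EZH2, PHF1, RBBP4, SUZ12, EZH1, MTF2, EED and JARID2. RBBP7 ranked first and PHF19 second in all 6 tumours, and the ranges of neighbours in this order were separate at 3 steps: RBBP7 over PHF19, PHF19 over EZH2, and SUZ12 over EZH1. At the other steps the ranges overlapped. PHF1 ranked 3 or 4 in the control tumours and 5 or 6 in the anti-ENG tumours.

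**Figure D2:**
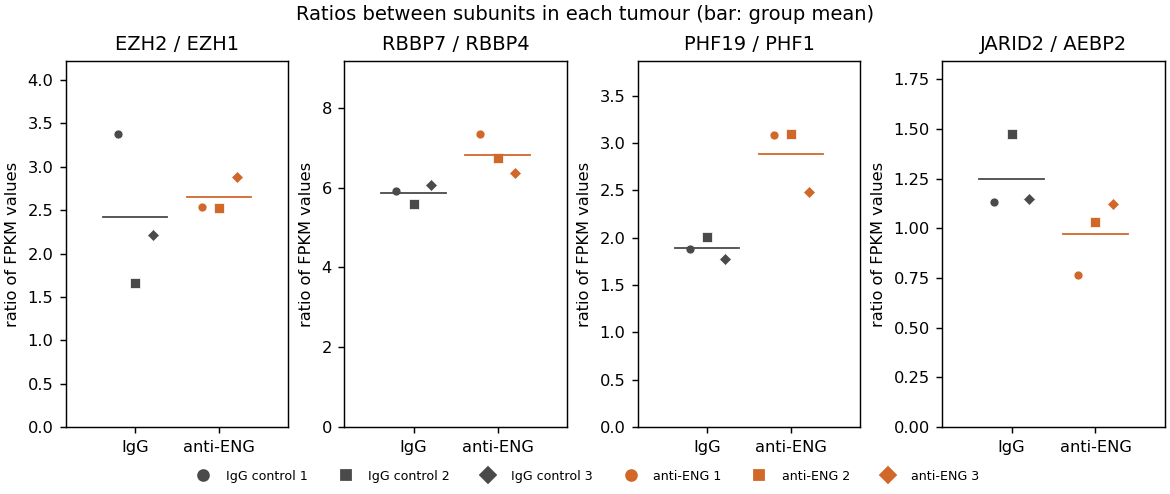
Ratios of FPKM values between subunits in each tumour (vertical axes start at 0), for IgG control (grey) and anti-ENG (orange) tumours, with bars at group means. The groups overlap for EZH2 / EZH1 and lie apart for RBBP7 / RBBP4, PHF19 / PHF1 (1.78 to 2.01 against 2.48 to 3.09) and JARID2 / AEBP2.

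No subunit passed the test for a difference between anti-ENG and IgG tumours. By limma on log2(FPKM + 1), with Benjamini-Hochberg adjustment over the 12586 genes whose mean reached 1 FPKM, 0 of the 10 members were called, as were 0% of all genes tested. At an unadjusted p under 0.05 there were 2 members, JARID2 and PHF1, both lower, against 9.17% of all genes at that level in either direction and 3.61% lower. Neither stayed under that level when tumours sharing a code number were averaged. JARID2 also did not with the replicate block or with quantile normalization. Of the 6 fits that left out 1 tumour, JARID2 stayed under it in 1 (without anti-ENG 3) and PHF1 in 3 (without IgG control 1, anti-ENG 1 or anti-ENG 3). The groups did not overlap in 3 members (RBBP7 higher, JARID2 and PHF1 lower), against 17.3% of all genes in either direction and 6.75% lower, and 10 genes are too few to read a difference from that share. Of the members 6 had higher and 4 lower estimates, against 51.2% higher among all genes. The median of the members was 0.057 and that of all genes 0.0065 on the log2 scale.

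Among the members with the smallest p, PHF1 had means of 20.5 ± 0.602 and 16.6 ± 0.497 FPKM (SD, n = 3 each) under IgG and anti-ENG. Its log2 fold change was -0.29 (SE 0.097, limma adjusted p = 0.529), with a 95% interval of -0.51 to -0.063. JARID2 had means of 7.38 ± 0.209 and 5.91 ± 0.312 FPKM (SD, n = 3 each), and its estimate was -0.28 on the log2 scale (SE 0.11, limma adjusted p = 0.529). RBBP7 had means of 106.1 ± 11.1 and 129.6 ± 9.13 FPKM (SD, n = 3 each), and its estimate was 0.29 (SE 0.12, limma adjusted p = 0.529). For each of these 3 genes the exact two-sided permutation p was 0.1, the smallest that 3 tumours against 3 can give. PHF19 had means of 38.8 ± 3.33 and 48.0 ± 5.93 FPKM (SD, n = 3 each), an estimate of 0.29 (limma adjusted p = 0.529) and an exact permutation p of 0.2. The values of PHF1, JARID2, RBBP7 and PHF19 depended on scaling. RBBP7 was 0.13 after cyclic loess normalization and 0.18 after quantile normalization. With each tumour rescaled to the same sum of FPKM, RBBP7 was 0.17 and PHF19 0.18, while PHF1 was -0.40 and JARID2 -0.38.

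The other 6 subunits, grouped here by their smaller estimates and not by role, had intervals that bound what these tumours could show. SUZ12 had a log2 fold change of 0.11 with a 95% interval of -0.13 to 0.36, and EED one of 0.11 with an interval of -0.15 to 0.36. EZH2 had 0.043 with an interval of -0.32 to 0.40, and EZH1 -0.13 with an interval of -0.52 to 0.25. RBBP4 had 0.071 (interval -0.18 to 0.32) and MTF2 -0.042 (interval -0.40 to 0.31). The limma adjusted p of these 6 genes ran from 0.698 for SUZ12 to 0.929 for MTF2, and their exact permutation p from 0.2 to 0.8. With the same-sum rescaling, which moved the median of all genes to -0.10, the estimates of SUZ12 and EED were -0.0015 and -0.0014, and those of EZH2 and RBBP4 were also below 0 (-0.073 and -0.044).

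**Figure D3:**
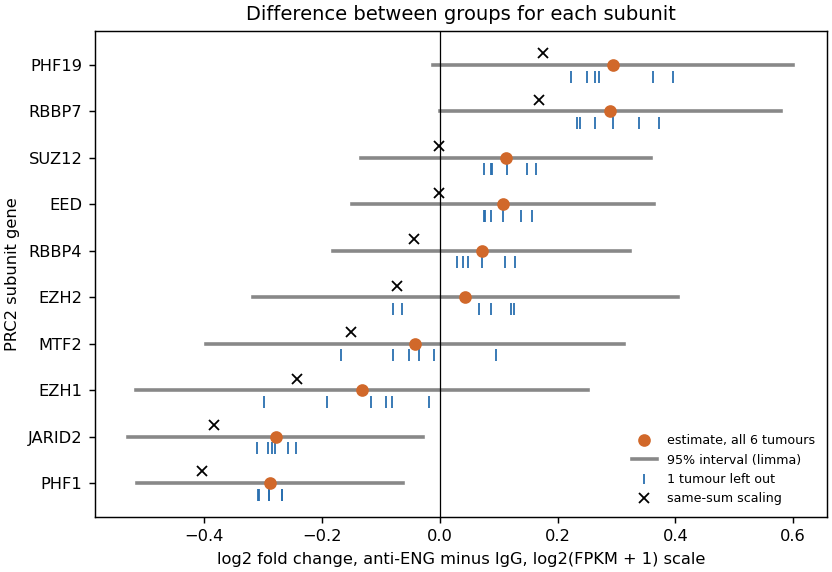
Log2 fold change of each subunit, anti-ENG minus IgG, on the log2(FPKM + 1) scale (orange), with the 95% limma interval (grey bar), the estimates with 1 tumour left out (blue ticks) and the estimate after rescaling to the same sum (cross). PHF1 and JARID2 have intervals below 0 before adjustment for multiple tests, and EZH2 and MTF2 have left-out estimates on both sides of 0.

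No marker of another cell type and no S phase gene was called. The summed level of 9 fibroblast markers was 830.1 to 1576 FPKM in the control tumours and 376.1 to 961.6 FPKM in the anti-ENG tumours. Of the 9, 8 had a lower estimate (against 48.8% of all genes), with DCN at -1.45, LUM at -1.35 and PDGFRB at -0.94. The groups were apart in 1, which was lower (against 6.75% of all genes). The lowest sum was that of anti-ENG 1 alone, the other anti-ENG tumours being at 834.0 and 961.6 FPKM, and without anti-ENG 1 the median of this list was -0.43 in place of -0.83. Host cells were of the mouse, and reads were aligned to the human genome. Whether the values of these human symbols came from the tumour cells or from mouse reads was not tested. Fewer cells of a type and less RNA per cell cannot be told apart in such bulk tumours either. Of 24 S phase genes, 22 had higher estimates (against 51.2% of all genes), with a median log2 fold change of 0.23. Their groups were apart in 7 (all higher, against 10.6% of all genes). The part of either list in the subunit values was not tested. Leukocyte markers summed to 133.7 to 282.5 FPKM in the controls and 85.9 to 219.9 in the anti-ENG tumours. The T cell marker CD3E was listed at 0 in every tumour. Host T cells would be mouse cells, so this value of the human gene does not show whether any were present. Of the 6 leukocyte markers tested 2 had higher estimates, with LYZ at -0.23, S100A8 at -1.74 and S100A9 at -2.04. Endothelial markers summed to 3.01 to 5.76 and 3.57 to 4.97 FPKM, with PECAM1 at -0.22 and TEK at 0.071.

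EZH2 is a well known target of the E2F factors that drive S phase, and its estimate lay below those of 21 of the 24 S phase genes tested. PCNA, the sliding clamp of replication, had an estimated log2 fold change of 0.62, the S phase cyclin gene CCNE2 0.48 and the polymerase gene POLA1 0.42 (limma adjusted p = 0.529 each). RBBP7 and PHF19 lay below 9 of the 24. No difference between these genes and a subunit was tested.

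The other accessory genes of PRC2 had lower means than the subunits. AEBP2 (6.08 FPKM) was close to JARID2 (6.64 FPKM), and above it in anti-ENG 1 (7.32 against 5.59 FPKM). The 4 that were listed (AEBP2, LCOR, LCORL and EPOP, listed as C17orf96) had a mean of 1 FPKM or more. Estimates were higher in 4 of 4 (against 51.2% of all genes), with 0 called and 0 with groups apart (against 17.3% of all genes). LCOR and LCORL, whose loci encode the PALI proteins that compete with JARID2 and AEBP2 for the complex, had log2 fold changes of 0.13 and 0.016.

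Genes of PRC1, the partner complex that ubiquitinates histone H2A, and of the PR-DUB deubiquitinase that removes this mark, were all present. All 25 had 1 FPKM or more in every tumour, from a mean of 1.87 FPKM for SCML2 to 80.9 FPKM for PHC2. The ubiquitin ligase genes RING1 and RNF2 had means of 31.9 and 9.08 FPKM, and BMI1, their activating partner, 24.7 FPKM. Of the 25, 11 had higher and 14 lower estimates, with 0 called, 4 with groups apart (against 17.3% of all genes) and a median of -0.042. PCGF5, a partner of the ligases in the variant form of PRC1, had 12.8, 10.6 and 13.2 FPKM under IgG and 24.8, 16.4 and 14.4 FPKM under anti-ENG, with an estimate of 0.53 on the log2 scale (limma adjusted p = 0.529). SCML2 had 0.49 and the PR-DUB gene ASXL2 -0.24.

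Genes that act against Polycomb silencing had lower estimates in 16 of 23, against 48.8% of all genes. Their median was -0.067, with 0 called and the groups apart in 5, of which 4 were lower, against 17.3% of all genes in either direction and 6.75% lower. KMT2C, listed as MLL3, which methylates histone H3 at enhancers, had 6.26, 6.42 and 6.26 FPKM under IgG and 4.33, 4.98 and 4.78 FPKM under anti-ENG. Its log2 fold change was -0.36 (SE 0.11, limma adjusted p = 0.529). The SWI/SNF gene SMARCC2 had -0.26 and the acetyltransferase gene CREBBP -0.34. KDM6A and KDM6B, the demethylases that remove the PRC2 mark, had means of 7.89 and 4.23 FPKM and log2 fold changes of 0.025 and -0.47. KDM6B was 6.63 FPKM in IgG control 1 and 2.49 FPKM in anti-ENG 1, and its groups overlapped.

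The other complexes that use RBBP4 or RBBP7 had no shared direction. Of 24 genes, 10 had higher and 14 lower estimates, with 0 called, 1 with groups apart (against 17.3% of all genes) and a median of -0.016. SIN3B and CHD3, subunits of the SIN3 and NuRD deacetylase complexes, had log2 fold changes of -0.34 and -0.31, and the SIN3 component SAP18 had 0.24.

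**Figure D4:**
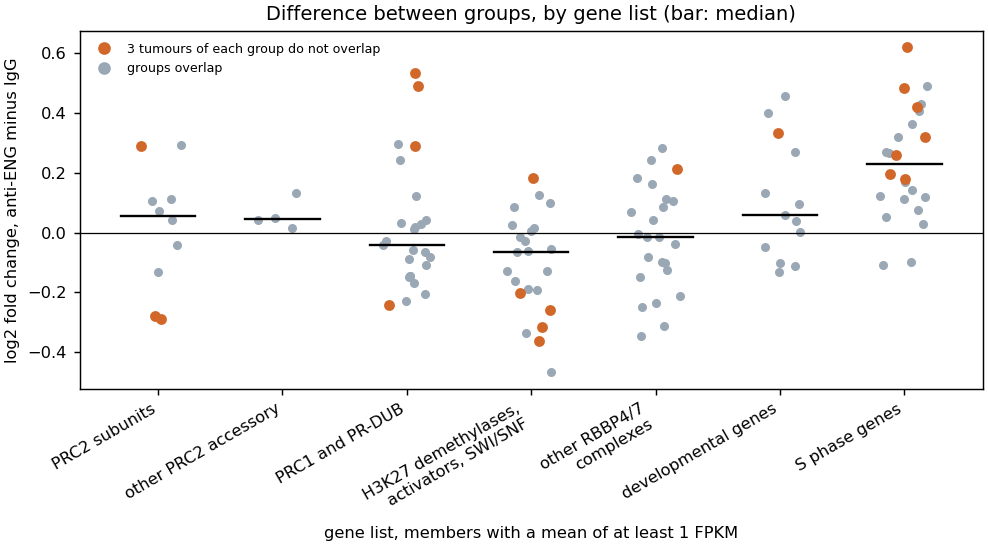
Log2 fold change, anti-ENG minus IgG, of each gene of each list with a mean of at least 1 FPKM, in orange where the 3 tumours of each group do not overlap, with a bar at the list median. The PRC2 subunits lie on both sides of 0 (median 0.057), and the S phase genes mostly above 0 (median 0.23).

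Developmental regulators that PRC2 is known to hold silent in many cell types were mostly at low levels in every tumour. Of 66 such genes, 49 (74.2%) were under 1 FPKM in all 6 tumours, against 42.1% of all genes listed, and 25 were listed at 0 in all. Among those at 0 were PAX2 and FOXN4. The number under 1 FPKM was 55, 52 and 55 under IgG and 50, 55 and 55 under anti-ENG. Only 8 reached 1 FPKM in every tumour. The list was assembled from general knowledge and not from the mark itself, which was not measured here, and low RNA of such genes is not specific to PRC2.

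The 13 genes of the list that entered the test had passed through their own level, so they do not stand for the list. Higher estimates were found in 9 (against 51.2% of all genes tested), and 0 were called. In 1, NKX6-1 (log2 fold change 0.33, limma adjusted p = 0.539), the groups were apart. Among all genes tested 17.3% were apart in either direction and 10.6% higher. PAX6 had an estimate of 0.40, and the imprinted gene CDKN1C one of 0.46, with 6.48 FPKM in anti-ENG 1 and 0.950 to 2.24 FPKM in the other 5 tumours.

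**Figure D5:**
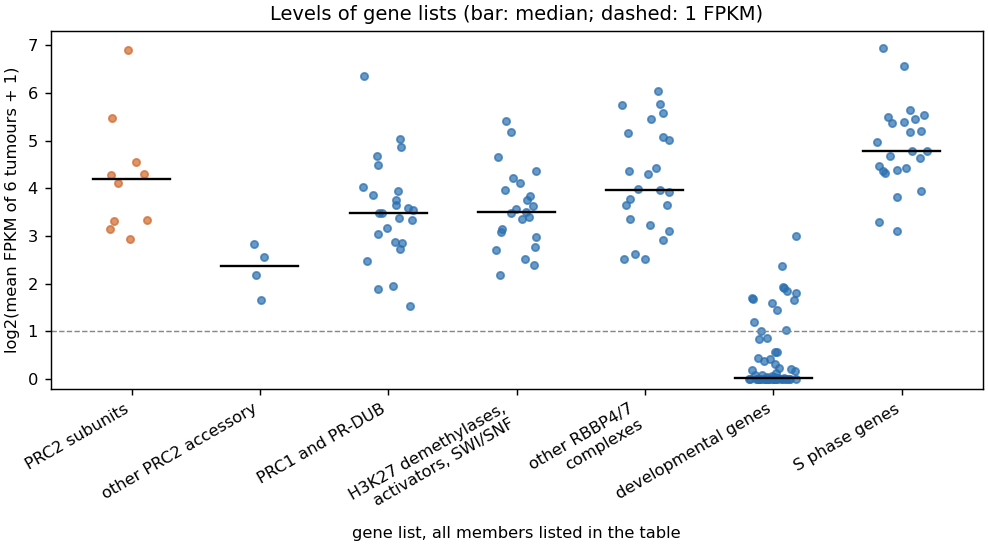
Level of every listed gene of each list, as log2 of the mean FPKM of the 6 tumours plus 1, with a bar at the list median and a dashed line at 1 FPKM. All PRC2 subunits lie above the line, and most of the 66 developmental genes lie below it.

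The genes whose profile over the 6 tumours was most like that of a core subunit were found by the root mean square difference of centred log2(FPKM + 1) values. For SUZ12 they included PAF1 (0.013) and MCCC1 (0.021). For EED they were PCYOX1 (0.020), RHOG (0.029) and ATG4A (0.031). For EZH2 they were SDK1 (0.022), IL1RAP (0.028) and GFOD1 (0.041), and for EZH1 they were PCBP4 (0.045), ZNF512B (0.048) and FBXW9 (0.050). These were picked from 12585 genes over only 6 tumours. Among the subunits themselves the closest pair that holds a core subunit was EED and RBBP4, at 0.046, with 0.199% of genes closer to EED. EZH2 and EZH1 differed by 0.29, and 64.8% of genes were closer to EZH2 than EZH1 was.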

How the data were processed

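The deposited table gives FPKM values for 23284 genes in 1 column per tumour, with no pooling. Per the submitters' processing notes, the authors used TopHat2 2.0.10, Bowtie 1.0.0, Cuffnorm and Cufflinks 2.2.1, and aligned to human GRCh37. The labels' protocols describe polyadenylated RNA and name a pair of library kits and of sequencers without saying which sample had which; a difference between groups in either cannot be told apart from treatment. Depth in fragments is unknown. Low values gave depths of 1.09 to 1.46 relative to IgG control 1 in the other tumours.

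The comparison used limma (3.58.1, under R 4.3.3) with a mean-variance trend and without covariates. It was fitted to log2(FPKM + 1) of the 12586 genes whose mean reached 1 FPKM. Its two-sided p-values were adjusted by Benjamini-Hochberg (threshold 0.05). This scale understates changes of low genes. Replicates are tumours as titled. IgG control 2 and 3 share a description code number, with the letters L and R, as do anti-ENG 1 and 2. The labels do not say which animal each tumour came from, and tumours of the same animal would not be independent. The p-values therefore measure only the spread between these tumours, and each n of 3 counts tumours, not animals.

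The members, the 11 other gene lists and the tests were chosen with earlier results of these data known. Named genes were the members, ENG, the 3 of smallest p in each list, developmental genes averaging 5 FPKM or more, and the 3 closest profiles to EZH2, EZH1, EED and SUZ12, passing over unnamed loci, pseudogenes and antisense or small RNAs. Some genes picked by this rule are not reported here. RING1, RNF2, BMI1, PHC2, KDM6A, KDM6B, SOX10, CDH19, CD3E, PAX2, FOXN4, IGF2 and EPOP, and all ratios except EZH2 to EZH1, were added afterwards. EZHIP was not matched under either symbol tried and is not analysed here. On simulated data with 200 planted changes among 12586 genes, limma recovered 11.2% of changes of 0.5 and 54.4% of changes of 1 on the log2 scale. Changes of 2 and 3 were planted as well, tumours were drawn as independent, and 5 runs gave 31 false calls. Every subunit estimate was smaller than 0.5, the smallest change planted. Alternatives covered the pseudocount, filter, scaling, variance model, weights, blocks and left-out tumours. No sequence is printed, since a human reference was not used here.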

Additional observations from a re-analysis of the deposited data

How the results depend on the processing

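No gene was called under any of the 19 alternatives fitted. The lowest limma adjusted p of a subunit was 0.369, with the code number as a random block. That fit estimated a correlation of -0.19 between tumours sharing a code number. It had 1653 genes at an unadjusted p under 0.05, against 1154 in the main fit. JARID2 and PHF1 stayed below 0 in all alternatives, with ranges of -0.38 to -0.24 and -0.40 to -0.27 on the log2 scale. RBBP7 and PHF19 stayed above 0, with ranges of 0.13 to 0.37 and 0.18 to 0.40. EZH1 stayed below 0, from -0.30 without IgG control 1 to -0.018 without IgG control 2.

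Of 190 subunit estimates under alternatives, 9 changed sign, in 5 genes. The 190 include fits that could not alter an estimate: the changed filters, the fit without a variance trend and the replicate block. With same-sum scaling EED was -0.0014, SUZ12 -0.0015, EZH2 -0.073 and RBBP4 -0.044. EZH2 ran from -0.079 to 0.13 with 1 tumour left out, being below 0 without IgG control 2 or without anti-ENG 3. MTF2 was 0.0095 with sample weights and 0.10 when IgG control 1 and anti-ENG 1 were both left out, and ran from -0.17 to 0.096 with 1 tumour left out. The cause of these sign changes was not tested beyond the shift of the median of all genes, -0.10, that same-sum scaling brings by construction.

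All 10 subunits were present at thresholds of 0.1 and 5 FPKM and with same-sum scaling.

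List medians moved with same-sum scaling to -0.15 for PRC1, -0.18 for genes acting against silencing, -0.13 for other RBBP4 and RBBP7 complexes, -0.037 for developmental genes and 0.11 for S phase genes. The developmental median was 0.13 with quantile normalization, and the S phase median 0.17 with cyclic loess. With 1 tumour left out, medians ran from -0.067 to 0.022 for PRC1 (above 0 without anti-ENG 1), -0.12 to -0.069 for genes acting against silencing, 0.017 to 0.22 for developmental genes (0.22 without anti-ENG 2) -1.17 to -0.43 for fibroblast markers (-0.43 without anti-ENG 1) and -0.25 to 0.040 for Schwann and neural crest markers (above 0 without IgG control 3). The cause was not tested.

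Same-numbered tumours did not deviate together: the correlations of their deviations from group means were -0.33, 0.19 and 0.037. The numbers were therefore not taken as pairs. With the replicate block the estimates could not differ from the main ones, since each number holds a tumour of each group. Only the errors and p-values could change, and 0 genes were called.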

Other observations

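IGF2, an imprinted growth factor gene on the list of developmental genes, had 0.757, 0.768 and 0.622 FPKM under IgG (tumours 1, 2 and 3) and 0.400, 0.0796 and 0.272 FPKM under anti-ENG. Each anti-ENG tumour was below each control, as was so for 6.75% of the genes tested. The mean of IGF2 was under 1 FPKM, a low level, so it did not enter the test, and it was singled out after its values were seen.

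PHF19 and PHF1, 2 Polycomblike genes, had estimates of opposite sign, and the ratio of PHF19 to PHF1 was 1.89 ± 0.119 in the control tumours and 2.88 ± 0.351 in the anti-ENG tumours (SD, n = 3 each). A ratio within a tumour does not change with scaling of that tumour. Of 9 ratios, shares and sums formed from the subunits and AEBP2, 4 had groups that did not overlap. Among single genes tested the share was 17.3%, and that among ratios of other genes was not computed. Each of the 4 holds RBBP7, PHF1 or JARID2, whose own groups were apart, and was formed afterwards. The PHF19 share and the ratio of PHF19 to PHF1 rest largely on the same genes.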
